A study of Mus musculus with 653 samples.

Results

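Midkine (*Mdk*), pleiotrophin (*Ptn*) and 6 candidate receptors, *Ptprz1*, *Alk*, *Sdc1*, *Sdc3*, *Sdc4* and *Lrp1*, were followed through single cells of the embryonic mouse liver. These 8 genes of the 54195 in the count table were listed by name. The 2 ligands were chosen by their own levels in an earlier grouping of the same cells, in which a cluster with mesenchyme markers had more *Mdk* and *Ptn* reads than the other cells, so the difference of *Mdk* and *Ptn* between hepatoblast-marked and mesenchyme-marked cells is given here as a description. The cells fall into 4 groups by stage and sort. Livers of E10.5 gave 414 cells, of which 51% were Lgr5-GFP+ and the rest bulk, and livers of E13.5 gave 239 cells, of which 80 were Lgr5-GFP+ and the rest bulk. Bulk cells were Liv2+, CD31- and CD45-, and Lgr5-GFP+ cells were in addition positive for the GFP of the Lgr5-EGFP-IRES-creERT2 knock-in, in which the *Lgr5* locus drives GFP. Per the labels, the embryos of all groups came from males of this line on a C57BL/6 background and MF1 females, and no other allele or agent is named for any group. Liv2 is a surface antigen of embryonic liver progenitors, and CD31 and CD45 mark endothelial and blood cells. Each cell was sorted singly and made into its own Smart-seq2 library of amplified cDNA without molecular identifiers.

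The labels name no animal, litter or sort, so each of the 4 groups counts as 1 sample and no p-value is given. The 5 library pools named in the labels serve as batches, and a pool value is given where at least 5 cells stand behind it. No label says whether the pools also differ by litter or sort. The authors describe batch effects between biological replicates, and how these relate to the pools is not stated. Reads per cell ranged from 463347 to 2279700, with a median of 1192740.

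Midkine and pleiotrophin form a small family of secreted, heparin-binding growth factors with cysteine-linked folds and many basic residues. They bind the sulphated sugar chains of proteoglycans and act on growth, migration and survival in many embryonic tissues, where epithelium and mesenchyme exchange signals. PTPRZ1 is a receptor phosphatase that carries chondroitin sulphate chains and is turned down by pleiotrophin. ALK is a receptor tyrosine kinase, the syndecans are membrane proteoglycans with heparan sulphate chains, and LRP1 is a large endocytic receptor that binds midkine among many other ligands.

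The coding sequences of the 2 ligands show how alike they are and whether reads of 50 bases can tell them apart. On GRCm38, *Mdk* (ENSMUSG00000027239) lies at chr2:91929805-91932297 and *Ptn* (ENSMUSG00000029838) at chr6:36714929-36810220, both on the minus strand. Their coding sequences, of 420 and 504 bases, had the same base in 66.1% of 416 aligned positions. The most alike stretch of 90 bases is shown, with capitals where both genes have the same base (64 of 90, 71.1%). It spans the junction of exons 3 and 4 in each gene, at chr2:91930927-91931132 for *Mdk* and at chr6:36741387-36743363 for *Ptn*.
Mdk: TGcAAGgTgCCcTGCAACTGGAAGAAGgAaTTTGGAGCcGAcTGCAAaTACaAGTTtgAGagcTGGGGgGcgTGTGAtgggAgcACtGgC
Ptn: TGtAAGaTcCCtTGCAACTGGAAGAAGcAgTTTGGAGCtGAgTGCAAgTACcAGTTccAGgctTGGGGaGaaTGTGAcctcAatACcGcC
The longest run that both share over the whole coding sequence was 15 bases, and no 50-base word was shared between any of the 8 genes, so a read of 50 bases that matches exactly belongs to 1 ligand. *Mdk* shared 2 of its 1325 transcript words with its pseudogene *Mdk-ps1*. *Sdc3* shared 5.36% of its words with *Gm26716*, which overlaps it on the other strand together with *Gm12970*, and the strand setting of the counting is not stated, so the low *Sdc3* counts are uncertain.

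Cells were assigned to a lineage by 3 marker genes, *Afp* (a fetal plasma protein of hepatoblasts), *Klf1* (a transcription factor of red cell precursors) and *Pdgfra* (a growth factor receptor of mesenchyme). A cell was called Afp-led, Klf1-led or Pdgfra-led where that marker had more than 10 reads and at least 5 times the reads of each of the others. This gave 63 Afp-led and 150 Pdgfra-led cells, 279 cells had no leading marker, of which 272 had no marker above 10 reads, and the others were Klf1-led. Of the marker genes not used in the rule, *Alb* had 1458 RPM in Afp-led cells and 3.91 RPM in Pdgfra-led cells, *Gata1* had 451 RPM in Klf1-led cells, and *Col3a1* had 1235 RPM in Pdgfra-led cells against 73.3 RPM in Afp-led cells (RPM, reads of the gene per 1000000 reads on genes, summed over the cells). In all, 11 of 12 hepatoblast genes were highest in Afp-led cells, 9 of 9 erythroid genes in Klf1-led cells and 9 of 9 mesenchyme genes with reads in Pdgfra-led cells. These counts include *Afp*, *Klf1* and *Pdgfra* themselves, whose place was set by the rule. The labels describe every cell as a hepatoblast of the liver, and the markers of most cells went against this. The lowest reads of the leading marker inside a class were 22 for *Afp*, 11 for *Klf1* and 11 for *Pdgfra*, and 1, 5 and 1 cells had their highest marker just outside, at 6 to 10 reads.

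The classes were spread unevenly over stage and sort. Afp-led cells made up 26.1% of E10.5 Lgr5-GFP+ cells (55 cells) and 2.96% of E10.5 bulk cells (6 cells). Pool 2 held 32 of the 55, among 47 Lgr5-GFP+ cells, and without it the share was 14%. At E13.5 there were 2 Afp-led cells, and Klf1-led cells made up 78.6% of bulk cells. At E10.5, Pdgfra-led cells were 37.4% of the bulk sort (76 cells) and 31.3% of the Lgr5-GFP+ sort (66 cells), and E13.5 gave 8 more. The comparison of hepatoblast-marked with mesenchyme-marked cells therefore rests on E10.5. The part of the sort gates, the pools and the class rule in these shares was not tested.

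*Mdk* was present at high levels in both Afp-led and Pdgfra-led cells at E10.5, and *Ptn* almost entirely in Pdgfra-led cells and in cells without a leading marker. In the 61 Afp-led cells, *Mdk* ranged from 813 to 7604 RPM per cell with a median of 2436 RPM. In the 76 bulk and 66 Lgr5-GFP+ Pdgfra-led cells it ranged from 15.95 to 22139 RPM with a median of 5129 RPM. The 2 ranges overlapped, and every cell of both classes had more than 10 *Mdk* reads (100%, 95% exact interval from 94.1% for Afp-led and from 97.4% for Pdgfra-led cells). This limit is a weak one for *Mdk*. In pools 1 and 2 all 30 and 17 Klf1-led cells of E13.5 passed it too, at medians of 18.9 and 12.5 RPM. The lowest Pdgfra-led cell, at 15.95 RPM, lay between these medians. Summed over cells, *Mdk* stood at 3023 RPM (95% exact Poisson interval 3010 to 3035) in Afp-led cells and at 6030 RPM (6018 to 6041) in Pdgfra-led cells, a ratio of 1.99. All intervals cover counting error only.

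For *Ptn*, Afp-led cells ranged from 0.718 to 252 RPM with a median of 3.49 RPM. Pdgfra-led cells ranged from 0 to 7968 RPM with a median of 1552 RPM. Thus the medians lay far apart, while the ranges overlapped, and 19 Pdgfra-led cells had 10 reads or fewer. The summed level was 8.35 RPM (7.71 to 9.03) in Afp-led cells and 1993 RPM (1986 to 1999) in Pdgfra-led cells, a ratio of 239. More than 10 *Ptn* reads were found in 4.92% of Afp-led cells (3 of 61, 1.03 to 13.7%) and in 86.6% of Pdgfra-led cells (64 of 76 bulk and 59 of 66 Lgr5-GFP+ cells, 79.9 to 91.7%).

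Klf1-led cells were taken as a measure of background, on the premise that they lack *Ptn*, which was not tested. At E10.5, 9.38% of these cells (3 of 32) had more than 10 *Ptn* reads and their summed *Ptn* level was 3.55 RPM. The share of Afp-led cells with *Ptn* was not above this at a like depth (median 1248569 reads per Afp-led cell and 1092637 per Klf1-led cell), though this depends on the read limit. The 3 Klf1-led cells had 11, 13 and 14 *Ptn* reads and came from pools 1 and 2, and the 3 Afp-led cells had 11, 59 and 305 reads. Above 50 reads, 2 of 61 Afp-led cells (3.28%) and 0 of 32 Klf1-led cells remained. In pools 3 to 5, a split chosen after seeing the data, 2 of 25 Afp-led and 0 of 26 Klf1-led cells had more than 10 reads. Most Afp-led cells were thus at the *Ptn* level of the Klf1-led cells, and whether the 2 cells with more reads expressed *Ptn* was not tested. One Afp-led cell at 252 RPM held 48.3% of the *Ptn* reads of its class, and without it the class stood at 4.39 RPM. *Mdk* had a median of 8.29 RPM and a range of 1.61 to 6867 RPM in E10.5 Klf1-led cells. The cell at 6867 RPM held 75.1% of the reads behind the summed level of 181.04 RPM, which was 46.1 RPM without it. Among the Klf1-led cells of E13.5, *Mdk* stood at 11.03 RPM and *Ptn* at 3.29 RPM. Within each pool these levels were 0.124 to 0.269% (*Mdk*) and 0.0665 to 0.385% (*Ptn*) of those in E10.5 Pdgfra-led cells of the same pool.

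**Figure D1:**
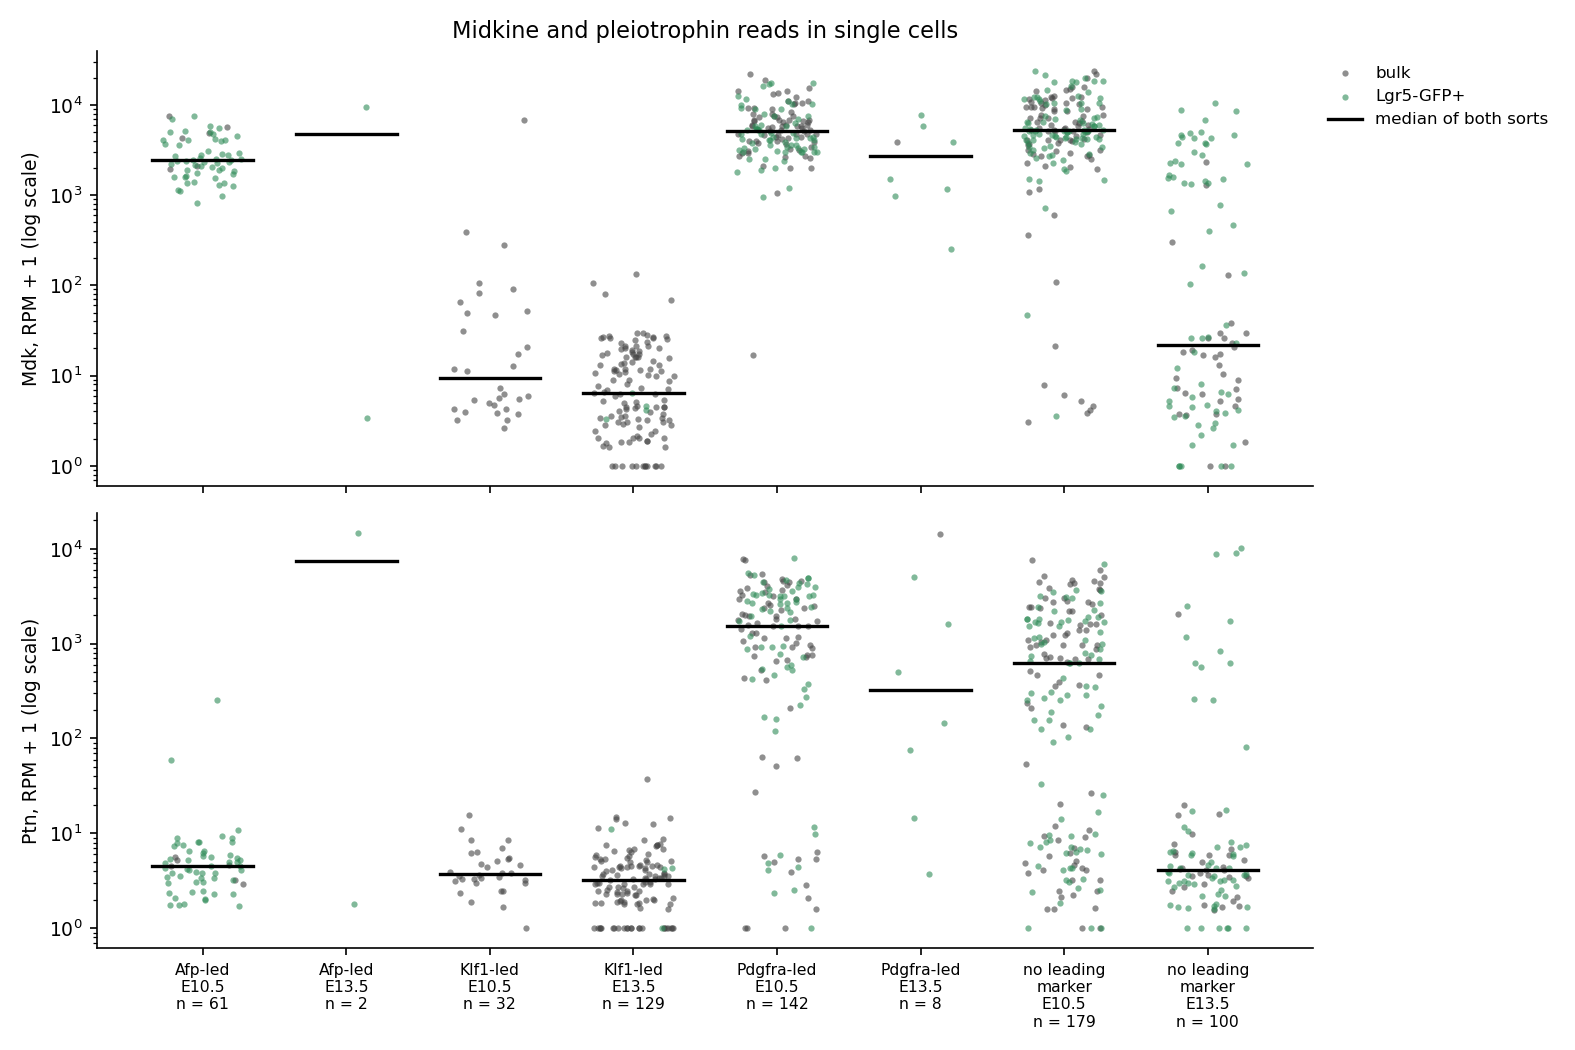
*Mdk* (top) and *Ptn* (bottom) in each cell of the series, as RPM plus 1 on a log axis, by leading marker and stage; points are single cells, coloured by sort, and bars are medians (over only 2 cells for Afp-led E13.5). Afp-led cells of E10.5 sit high for *Mdk* (median 2436 RPM) and low for *Ptn* (median 3.49 RPM), while Pdgfra-led cells of E10.5 sit high for both (5129 and 1552 RPM).

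Per kilobase of exons, which allows the 2 genes to be compared, *Mdk* exceeded *Ptn* in both classes. *Mdk* stood at 4554 RPM per kb and *Ptn* at 580 RPM per kb in Pdgfra-led cells of E10.5. In Afp-led cells the values were 2283 and 2.43 RPM per kb. On RPM not divided by length, *Mdk* was above *Ptn* in every Afp-led cell and in 85.9% of Pdgfra-led cells.

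The 2 ligands were most often found together in mesenchyme-marked cells. Both had more than 10 reads in 86.6% of Pdgfra-led cells, in 70.9% of cells without a leading marker (64 of 89 bulk and 63 of 90 Lgr5-GFP+ cells, 63.7 to 77.5%) and in 4.92% of Afp-led cells. *Mdk* without *Ptn* was the state of 58 of 61 Afp-led cells (95.1%), of 19 Pdgfra-led cells (13.4%) and of 44 cells without a leading marker (24.6%). *Ptn* without *Mdk* was seen in 1 cell of the series, a Klf1-led cell of E13.5. In Pdgfra-led cells with both, the median ratio of *Mdk* to *Ptn* per kb was 7.20.

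**Figure D2:**
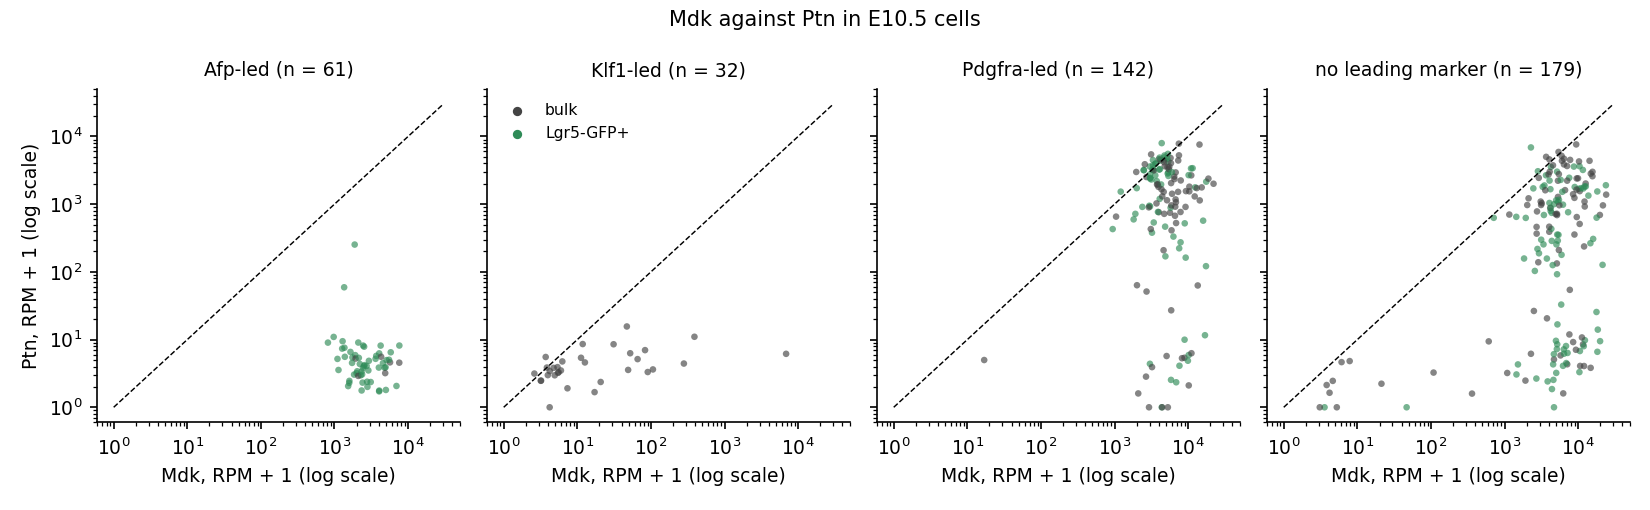
*Ptn* against *Mdk* in E10.5 cells, both as RPM plus 1 on log axes, in 1 panel per class; each point is a cell, coloured by sort, and the dashed line marks equal RPM. Afp-led cells form 1 group at high *Mdk* and low *Ptn*, whereas Pdgfra-led cells and cells without a leading marker spread from low to high *Ptn* at high *Mdk*.

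The share of reads that each class contributed followed both its level and its number of cells. At E10.5, Pdgfra-led cells made up 34.3% of the cells and held 38.8% of the *Mdk* reads and 58.7% of the *Ptn* reads. Afp-led cells made up 14.7% of the cells and held 8.37% of the *Mdk* reads and 0.106% of the *Ptn* reads. Cells without a leading marker were 43.2% of the cells and held 52.5% and 41.2% of the reads. The Afp-led share of *Mdk* reads was 3.69% without pool 2 and 12.8% without pool 1. Within the bulk sort, the Afp-led share of *Mdk* reads was 2.72%, and within the Lgr5-GFP+ sort it was 13.95%. When each lineage was marked by 4 genes in place of 1 (*Afp*, *Alb*, *Apoa1* and *Hnf4a*; *Klf1*, *Gata1*, *Rhag* and *Epor*; *Pdgfra*, *Pdgfrb*, *Col1a2* and *Col3a1*), 120 cells without a leading marker joined the mesenchyme-marked class. This larger class of 262 cells held 75.2% of the *Mdk* reads and 90.2% of the *Ptn* reads of E10.5. The 63 cells led by the hepatoblast genes then held 8.80% of the *Mdk* reads.

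**Figure D3:**
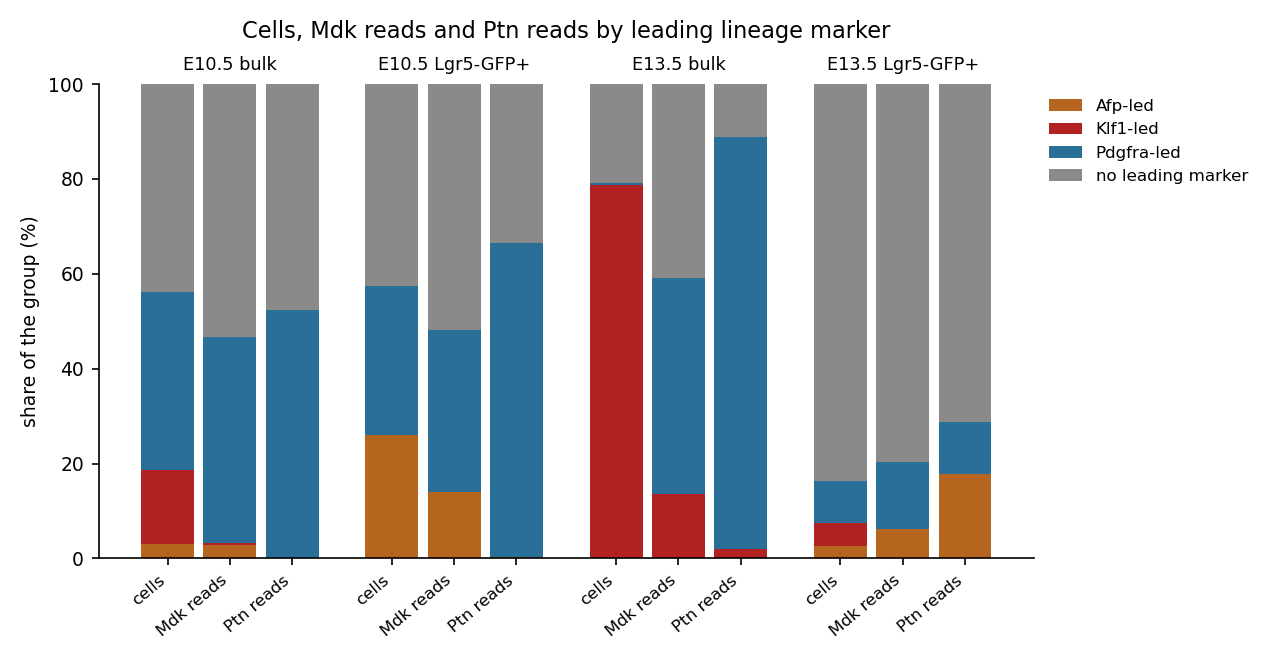
Share of cells, of *Mdk* reads and of *Ptn* reads held by each class in the 4 groups, as stacked bars from 0 to 100%. Afp-led cells take a visible part of the *Mdk* reads of E10.5 Lgr5-GFP+ cells (13.95%) and almost none of their *Ptn* reads (0.221%), and the E13.5 bars rest on few cells with reads.

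Cells without a leading marker were a mixture, described here by lists of marker genes. Over both stages, the 7 endothelium, 6 leukocyte, 4 megakaryocyte and 4 neural genes with reads were all highest in this class. A cell counted for a list with more than 10 reads of at least 3 of its genes, and it could count for several. At E10.5, 71 of these cells (89 bulk and 90 Lgr5-GFP+) counted for the mesenchyme list, with *Mdk* at 5878 RPM, *Ptn* at 1626 RPM and *Ptn* present in 90.1% of them. The 14 cells with mesothelium genes had 3917 RPM of *Mdk* and 1181 RPM of *Ptn*. By contrast, the 11 cells with endothelium genes had 527 RPM of *Mdk* (median 20.3 RPM) and 3.37 RPM of *Ptn*, and the 11 with megakaryocyte genes had 16.5 and 1.37 RPM. The 9 cells with hepatoblast genes but no leading marker had *Mdk* from 1519 to 6886 RPM (median 5168 RPM). Their *Ptn* level was 72.6 RPM (median 5.09 RPM, highest cell 430 RPM), and 2 of the 9 had more than 10 *Ptn* reads. The 62 cells of no list had 9650 RPM of *Mdk* and 1118 RPM of *Ptn*. They held much of the signal of this class without reaching 3 genes of any list. With 4 genes per lineage, 120 cells of this class were mesenchyme-marked, so the 3-gene limit left out some of them. *Mdk* of this E10.5 class was 10398 and 9114 RPM in pools 1 and 2 and 2804.7 to 4482.5 RPM in pools 3 to 5. The part of the pools in the level of the 62 cells was not tested.

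Both ligands moved with the library pool, and in Pdgfra-led cells they did so in opposite directions. In these cells of E10.5, *Mdk* stood at 10282 and 9744 RPM in pools 1 and 2 and at 4071, 3723 and 4562 RPM in pools 3, 4 and 5. *Ptn* stood at 1188 and 1431 RPM in pools 1 and 2 and at 2133, 2406 and 2494 RPM in pools 3, 4 and 5. The ratio of *Mdk* to *Ptn* in RPM was thus 8.66 and 6.81 in the first pair of pools and 1.55 to 1.91 in the others. In cells without a leading marker, *Ptn* stood at 1110 and 1705 RPM in pools 1 and 2 and at 899 to 985 RPM in the others, so there it was higher in the pools with more *Mdk*. *Mdk* of Afp-led cells was likewise higher in pool 2 than in pools 3 to 5, with 3528 RPM in pool 2 and 2001 to 2198 RPM in pools 3 to 5. The pools differed little in reads per E10.5 cell (medians of 1158192 to 1333097), but the median number of detected genes was 4531 and 4624 in pools 1 and 2 and 6439 to 7055 in pools 3, 4 and 5. Its part in these levels was not tested. Since 34 of the 61 Afp-led cells came from pool 2, classes are compared within pools beside the pooled value.

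Within pools, the difference between the classes kept its direction for both ligands. The log2 ratio of RPM of Pdgfra-led over Afp-led cells was 0.996 for *Mdk* over all E10.5 cells and 1.47, 0.89, 0.88 and 1.19 in pools 2, 3, 4 and 5. For *Ptn* it was 7.90 over all cells and 8.43, 8.13, 5.70 and 10.10 within these pools. A gene was counted as higher or lower where its mean level in both classes reached 5 RPM, the ratio was at least 2-fold and every usable pool had the same direction. By this count 13.7% of the 10714 genes compared were higher in Pdgfra-led cells and 8.64% lower. Of the 8 genes followed here, 6 reached the level limit, 1 (*Ptn*) was higher and 1 (*Sdc4*) was lower, and *Mdk* lay just under the 2-fold limit. Since *Mdk* and *Ptn* were picked for this difference, nothing is read from that count for them.

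*Sdc4*, which codes for a syndecan found at focal adhesions, was the receptor with the clearest difference between the classes, and it was higher in Afp-led cells. Afp-led cells ranged from 0 to 1306 RPM with a median of 51.9 RPM, and Pdgfra-led cells from 0 to 929 RPM with a median of 0 RPM. More than 10 reads were found in 59% of Afp-led cells (36 of 61, 45.7 to 71.4%) and in 27.5% of Pdgfra-led cells (21 of 76 bulk and 18 of 66 Lgr5-GFP+ cells, 20.3 to 35.6%). The summed levels were 184.9 RPM (181.8 to 187.95) and 34.8 RPM (33.95 to 35.7), a log2 ratio of -2.41 for Pdgfra-led over Afp-led cells. Within pools 2 to 5 the ratio was -1.90, -2.29, -2.05 and -3.84, so Afp-led cells were higher in each. Klf1-led cells of E10.5 had 4 *Sdc4* reads in all (0.102 RPM), and 0 of these 32 cells had more than 10, which allows a share of up to 9.38%. Among cells without a leading marker, *Sdc4* was present in 75% of the 16 with cholangiocyte genes (133.3 RPM) and in 71.4% of the 14 with mesothelium genes (168.5 RPM), and some cells counted for both.

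*Sdc1*, an epithelial syndecan, had summed levels that were close in both classes, while its share of cells was higher among Afp-led cells. It was present in 59% of Afp-led cells (median 32.5 RPM) and in 44.4% of Pdgfra-led cells (63 cells, median 1.49 RPM), and the ranges of 0 to 723.7 RPM and 0 to 937 RPM overlapped. The summed levels were 81.6 RPM (79.6 to 83.7) and 71.4 RPM (70.2 to 72.7). Their log2 ratio of -0.19 had no stable direction over pools 2 to 5 (-7.12, 0.17, -0.31 and 0.28). The share of cells with *Sdc1* had the same order in each of these pools, at 35.3, 100, 100 and 66.7% of Afp-led and 0, 66.7, 64.9 and 50% of Pdgfra-led cells. In pool 2, 0 of the 20 Pdgfra-led cells had more than 10 *Sdc1* reads.

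*Lrp1* was present in 37.7% of Afp-led cells (23 of 61, 25.6 to 51%) and in 47.9% of Pdgfra-led cells (68 cells, 39.4 to 56.4%). The ranges were 0 to 358 RPM and 0 to 793 RPM, with medians of 1.06 and 7.05 RPM. Summed over cells it stood at 47.2 RPM (45.7 to 48.8) and 75.6 RPM (74.3 to 76.9), a log2 ratio of 0.68. The direction differed between pools (0.87, -0.13, 0.14 and -0.36 in pools 2 to 5), so no difference between the classes held within pools.

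*Ptprz1*, *Alk* and *Sdc3* were close to absent. *Ptprz1* had more than 10 reads in 7 cells of the whole series. Its level of 13.3 RPM in Pdgfra-led cells came almost wholly from 1 Lgr5-GFP+ cell at 1841 RPM, which held 96.5% of the reads, and without this cell the class stood at 0.469 RPM. Afp-led cells of E10.5 had 2 *Ptprz1* reads in all, and 0 of 61 had more than 10, which allows a share of up to 4.92%. *Alk* was present in 11 cells, and 1 bulk cell without a leading marker at 887 RPM held 40% of all its reads. *Sdc3* was present in 17 cells, of which 12 had no leading marker. Of the 19 E13.5 cells with leukocyte genes, 5 had *Sdc3*, at 46.9 RPM over the 19. At this depth, low levels of these 3 receptors in the remaining cells could not be detected.

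Per kb and at E10.5, the order of the receptors in Afp-led cells was *Sdc4* (72.6 RPM per kb), *Sdc1* (21.4), *Lrp1* (2.67), *Alk* (0.399), *Sdc3* (0.00221) and *Ptprz1* (0.00185). In Pdgfra-led cells it was *Sdc1* (18.8 RPM per kb), *Sdc4* (13.7), *Lrp1* (4.27), *Ptprz1* (0.935), *Alk* (0.176) and *Sdc3* (0.0769). *Sdc3* and *Ptprz1* of Afp-led cells rest on 1 and 2 reads and their counting intervals overlap, and *Ptprz1* of Pdgfra-led cells rests on the 1 cell named above. All receptors were thus far below *Mdk*, at 2283 and 4554 RPM per kb in the 2 classes.

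Most Afp-led and Pdgfra-led cells of E10.5 carried a receptor. At least 1 of the 6 receptors had more than 10 reads in 82% of Afp-led cells (50 of 61, 70 to 90.6%), in 69% of Pdgfra-led cells (98 cells, 60.7 to 76.5%), in 57% of E10.5 cells without a leading marker and in 37.5% of E10.5 Klf1-led cells (12 of 32). As every Afp-led and Pdgfra-led cell of E10.5 had more than 10 *Mdk* reads, the same shares had *Mdk* together with a receptor at this limit. In Klf1-led cells of E10.5 a receptor was found in 5 of 14 cells with *Mdk* and in 7 of 18 without. At E13.5 it was found in 1 of 54 Klf1-led cells with *Mdk* and in 18 of 62 cells with *Mdk* but no leading marker. Most of these 54 came from pools 1 and 2, where all 30 and 17 Klf1-led cells passed the *Mdk* limit, at medians of 18.9 and 12.5 RPM. In pools 3, 4 and 5 only 3, 3 and 1 cells passed it. *Sdc1* was present in 0 Klf1-led cells of pools 1 and 2 at this stage, and in 2, 5 and 2 of pools 3, 4 and 5. The 1 of 54 is thus tied to the pools, and no link between *Mdk* and receptors is read from it. At least 2 receptors were found in 52.5% of Afp-led cells and in 37.3% of Pdgfra-led cells. *Sdc1* and *Sdc4* together were found in 41% of Afp-led cells (25 of 61) and in 20.4% of Pdgfra-led cells (29 cells).

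Detection of the receptors followed the pools even more than the ligands did. In Pdgfra-led cells, *Sdc1* was present in 20.7% and 0% of cells in pools 1 and 2 and in 66.7, 64.9 and 50% in pools 3, 4 and 5. *Sdc4* was present in 6.90 and 10% against 43.3, 43.2 and 23.1%, and *Lrp1* in 27.6 and 15% against 56.7, 73 and 50%. Afp-led cells had the same pattern, with *Sdc4* in 35.3% of cells in pool 2 and in 88.9 to 100% in pools 3 to 5. The pools with fewer *Sdc1*, *Sdc4* and *Lrp1* cells were again those with fewer detected genes, and the part of that number in the shares was not tested. Within each pool with both classes, *Sdc4* was present in a larger share of Afp-led than of Pdgfra-led cells.

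**Figure D4:**
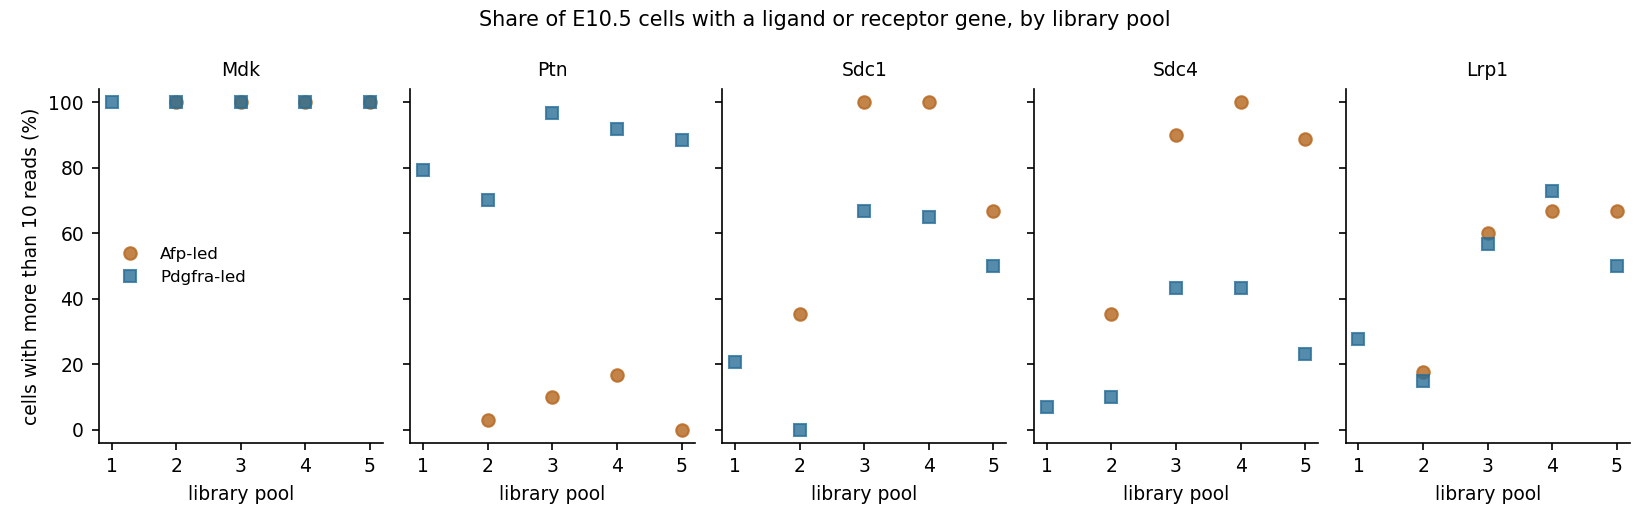
Percent of E10.5 cells with more than 10 reads of *Mdk*, *Ptn*, *Sdc1*, *Sdc4* and *Lrp1* in each of the 5 library pools, for Afp-led (circles) and Pdgfra-led cells (squares); pool 1 had too few Afp-led cells. *Mdk* is at 100% throughout, *Ptn* separates the classes in every pool, and *Sdc1*, *Sdc4* and *Lrp1* are lower in pools 1 and 2 than in pools 3 to 5 in both classes.

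**Figure D5:**
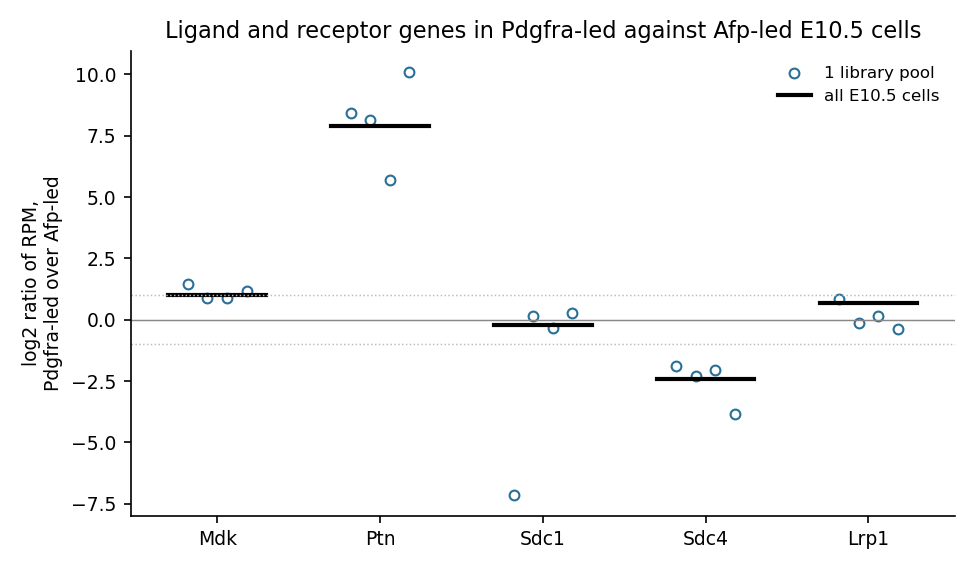
Log2 ratio of RPM of Pdgfra-led over Afp-led cells of E10.5 for the 5 genes with usable levels; circles are library pools 2, 3, 4 and 5 from left to right, bars are all E10.5 cells, and dotted lines mark 2-fold. *Ptn* lies above and *Sdc4* below 0 in every pool, *Mdk* lies near 1, and *Sdc1* and *Lrp1* lie on both sides of 0.

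Against Klf1-led cells, both other classes had more ligand and receptor reads at E10.5. Of 10473 genes compared, 28.5% were higher and 13% lower in Pdgfra-led than in Klf1-led cells, and of the 6 genes followed here that reached the limit, 5 were higher (*Mdk*, *Ptn*, *Sdc1*, *Sdc4* and *Lrp1*) and 0 lower. Nothing is read from this count, since *Mdk* and *Ptn* were chosen for high levels in mesenchyme-marked cells, and *Ptn* and *Sdc4* reached the level limit only through the Pdgfra-led cells. *Sdc1* stood at 28.9 RPM in Klf1-led cells, with 31.2% of cells, and its log2 ratio was 1.30, with 0.26 to 2.10 in pools 3 to 5. For *Lrp1* the log2 ratio was 3.27, and 92.8% of its Klf1-led reads lay in 1 cell, without which the Klf1-led level was 0.572 RPM. In Afp-led over Klf1-led cells, where 17% of 9813 genes were higher and 12.2% lower, 3 of 5 were higher (*Mdk*, log2 ratio 4.06; *Sdc4*, 10.82; *Lrp1*, 2.59) and 0 lower. *Ptn* and *Sdc1*, with log2 ratios of 1.23 and 1.5, did not keep 1 direction over the pools. The 3 of 5 is not read as a result either. *Mdk* was chosen by its own levels, and *Sdc4* reached the level limit only through the Afp-led cells.

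Between sorts, the Pdgfra-led cells of E10.5 were close in both ligands. *Mdk* stood at 6507 RPM in the 76 bulk cells (15.95 to 22139 RPM, median 5720 RPM) and at 5523 RPM in the 66 Lgr5-GFP+ cells (943 to 17617 RPM, median 4333 RPM). *Ptn* stood at 1870 and 2123 RPM, with medians of 1471 and 2050 RPM, and was present in 84.2% and 89.4% of cells. The log2 ratio of Lgr5-GFP+ over bulk was -0.24 for *Mdk* (-0.37 to 0.05 over the 5 pools) and 0.18 for *Ptn* (-2.18 to 0.58), so neither had the same direction in all pools. None of the 6 genes that reached the limit was counted as different, in a comparison where 1.75% of 10671 genes were higher and 1.78% lower. *Lrp1* was the member with the same direction in all 5 pools, at 96.7 RPM in Lgr5-GFP+ and 55.8 RPM in bulk cells, present in 62.1% (49.3 to 73.8%) and 35.5% (24.9 to 47.3%) of cells. Its log2 ratio of 0.79 stayed under the 2-fold limit and ranged from 0.26 to 3.65 over pools.

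Among Afp-led cells of E10.5, 6 bulk cells stood against 55 Lgr5-GFP+ cells, and no pool had enough of both. *Mdk* stood at 4501 RPM in bulk cells (1932 to 7586 RPM) and 2843 RPM in Lgr5-GFP+ cells (813 to 7604 RPM), a log2 ratio of -0.66 with overlapping ranges. *Sdc4* stood at 531 and 142.8 RPM and was present in 50% (11.8 to 88.2%) and 60% (45.9 to 73%) of cells, so its summed level and its share of cells went in opposite directions.

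At E13.5 the ligands could be described in a few cells of either lineage. Of the 2 Afp-led cells, both Lgr5-GFP+, one had 9398 RPM of *Mdk*, 14700 RPM of *Ptn*, 5483 RPM of the collagen gene *Col3a1* and 0 *Alb* reads. The other had 2.42 RPM of *Mdk*, 0.807 RPM of *Ptn*, 667 RPM of *Alb* and 0 *Col3a1* reads. So the E13.5 cell with hepatoblast genes lacked both ligands, and the ligand-rich cell had a mesenchyme gene beside *Afp*. The 8 Pdgfra-led cells had *Mdk* from 250 to 7660 RPM (median 2695 RPM) and *Ptn* from 2.76 to 14395 RPM (median 323 RPM). The bulk cell at 14395 RPM held 68.7% of their *Ptn* reads. Set against E10.5, the log2 ratio in Pdgfra-led cells was -0.94 for *Mdk* and 0.75 for *Ptn*, while the median over all 10193 genes compared was -1.01. Without the cell with the most reads, the ratio of *Ptn* turned to -0.67, and it was -0.81 without pool 1, so no direction over time is read for it.

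Cells without a leading marker at E13.5 were split. In 11 cells with mesenchyme genes, *Mdk* stood at 3880 RPM and *Ptn* at 3948 RPM, and 8 of them had *Ptn*. The 19 cells with leukocyte genes had 23.04 RPM of *Mdk* and 2.54 RPM of *Ptn*, but 166.4 RPM of *Sdc4* and 98.97 RPM of *Lrp1*, each in 5 or 6 of the cells. A further 36 cells of no list had 1621 RPM of *Mdk* and 95.4 RPM of *Ptn*.

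Klf1-led cells allowed the 2 stages to be compared within pools 3, 4 and 5. *Mdk* was lower at E13.5 (11.03 RPM against 181.04 RPM, log2 ratio -4.04, -3.60 to -0.93 over the pools), and 1 E10.5 cell gave most of the earlier reads, as stated above. *Sdc1* was lower too, over all pools at 4.82 RPM and 6.98% of cells against 28.9 RPM and 31.2% (log2 ratio -2.59, and -3.16 to -0.65 within pools 3 to 5). These were the 2 members that reached the limit, in a comparison where 7.51% of 8807 genes were higher and 5.2% lower at E13.5. Nothing is read from both being lower. *Sdc1* reached the level limit only through the E10.5 cells, and *Mdk* was chosen by its own levels. The share of E13.5 Klf1-led cells with more than 10 *Mdk* reads was 100% in pools 1 and 2 and 4.35 to 10.7% in pools 3 to 5.

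The genes around the ligands were described by fixed lists. These lists were chosen with earlier results of these data known, and a gene could reach the level limit through the higher class alone. Their counts and medians, here and below, are given as a description, and nothing is read from them. Of 17 other proteins known to bind midkine or pleiotrophin, 11 reached the limit in Pdgfra-led over Afp-led cells, 5 were higher and 0 lower, against 13.7% and 8.64% of all genes. These were *Itga6* (log2 ratio 5.45) and *Itgb1* (1.55), which code for integrin chains, the chondroitin sulphate proteoglycan gene *Vcan* (4.21), the semaphorin and growth factor co-receptor gene *Nrp1* (2.68) and the syndecan gene *Sdc2* (2.25). *Vcan* stood at 291 RPM in Pdgfra-led and 15.7 RPM in Afp-led cells. The median of the 11 was 1.55, beside 0.19 for all genes compared. Nucleolin (*Ncl*), at 837 and 1596 RPM, was lower in Pdgfra-led cells in every pool but under 2-fold (log2 ratio -0.93). *Sdc2* and *Sdc4* thus lay on opposite sides, with *Sdc2* at 99.4 RPM in Pdgfra-led and 20.95 RPM in Afp-led cells.

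Of 16 genes for enzymes that build or trim glycosaminoglycans, the sugar chains that the ligands bind, 15 reached the limit, 4 were higher in Pdgfra-led cells and 1 was lower, against 13.7% and 8.64% of all genes. Higher were *Dse* (log2 ratio 5.86) and *Chst14* (2.27), which act in dermatan sulphate synthesis, the sulphatase gene *Sulf1* (3.97) and *Ext1* (1.19), part of the heparan sulphate polymerase. *Xylt2*, whose product starts the chains, was lower (-1.18). *Dse* stood at 49.9 RPM in Pdgfra-led and 0.859 RPM in Afp-led cells, and so reached the limit only through the former. The median of the 15 was 0.41. Of 4 genes for substrates of PTPRZ1, all 4 reached the limit and 2 were higher, *Ctnnb1* (beta-catenin, 2.58) and *Fyn* (a Src family kinase, 1.75), with a median of 1.21, and 4 genes are too few to set against the share of all genes. Neither of the 2 genes for ALK ligands, *Alkal1* and *Alkal2*, reached the limit.

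Against Klf1-led cells, the same lists had 5 higher and 2 lower of 11 other binding partners, 9 higher and 1 lower of 15 enzymes, and 2 higher and 0 lower of 4 substrates in Pdgfra-led cells, where 28.5% of all genes were higher and 13% lower. In Afp-led over Klf1-led cells the counts were 2 higher and 4 lower of 12, 3 higher and 1 lower of 12, and 1 higher and 0 lower of 4, beside 17% and 12.2% of all genes. Between sorts in Pdgfra-led cells, 0 were higher and 2 lower of 11 binding partners (*Lrp2*, log2 ratio -3.04; *Sdc2*, -1.0), 1 was higher and 2 were lower of 15 enzymes, and 0 of 4 substrates were counted, beside 1.75% and 1.78% of all genes. For the stages of Klf1-led cells the counts were 1 higher and 1 lower of 10, 1 higher and 0 lower of 11, and 0 of 4, beside 7.51% and 5.2%. Several of these counts lie near the shares of all genes. These comparisons share cells, so their counts are not independent of each other.

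The genes most like each ligand over all cells were found by the Pearson correlation of log2(RPM + 1), among 8460 genes present in at least 10% of cells. For *Mdk* they were the glypican gene *Gpc3* (0.78), the microfibril gene *Mfap2* (0.76), the glypican gene *Gpc6* (0.72), and the imprinted genes *Peg3* (0.70) and *H19* (0.69), with *Ptn* at place 13 (0.64). For *Ptn* they were *Mfap2* (0.71), *Mdk* (0.64), the Wnt-binding factor gene *Sfrp1* (0.64), the netrin receptor gene *Unc5c* (0.64) and *6330403K07Rik* (0.64). At E10.5, *Gpc3* stood at 1067 RPM in Afp-led, 11.6 RPM in Klf1-led and 1407 RPM in Pdgfra-led cells, and at 845 RPM in cells without a leading marker, where *Mdk* was at its highest (6457 RPM). *Sfrp1* stood at 4.77, 0.562, 438 and 319 RPM in the same order. The cells share libraries, pools and lineages, and within the Pdgfra-led cells of E10.5 the correlation of *Mdk* and *Ptn* was 0.06. The correlation of *Klf1* was -0.69 with *Mdk* and -0.43 with *Ptn*.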

How the data were processed

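The authors mapped single-end reads of 50 bases with STAR 2.6.0c to a GRCm38 reference that included spike-ins. Reads with a unique alignment were then assigned to Ensembl genes by Subread 1.6.2. Cells had been filtered by mitochondrial reads, spike-in reads, total reads and detected genes. The deposited table holds raw counts, which are not normalised, of 54195 genes in 653 cells, and 0 of its columns were left unused. A deposited table of normalised values was not used.

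Members and gene lists were chosen with earlier results of these data known. Named genes are the 8 members, the 3 lineage markers, up to 8 listed genes per list counted in the main comparison, and the 5 genes most like each ligand; other genes with values were named after these were seen. Levels are RPM of summed reads (95% exact Poisson intervals) and shares are of cells with more than 10 reads, the limit the study used for *Lgr5* (95% exact Clopper-Pearson intervals). A share of 0 was given a limit of 3 cells. Gene names, exon lengths and sequences come from the GENCODE annotation and genome of GRCm38. Results of 1 marker list are not reported here. No doublet caller was run; 10 cells had 2 or more lineage markers above the limit. Call counts were tested on simulated cells whose gene levels did not differ between pools, so the rule was not tested under pool effects. Python 3.11.15, numpy 2.4.6, pandas 2.3.3 and scipy 1.17.1 were used. Alternatives changed the class rule, pools, sorts, depth (each cell thinned to 100000 reads), scaling and limits.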

Additional observations from a re-analysis of the deposited data

Results flagged for a closer look

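In classes of 4 to 10 cells of 1 group, 15 sets of values were examined for a cell that stood apart from the rest, and 8 had one. A set was examined only where a cell had more than 10 reads, so the 8 of 15 cannot be set against a chance rate. Among the 6 Afp-led bulk cells of E10.5, 1 cell had 85.8 RPM of *Alk* (next 1.46 RPM) and 1 had 228 RPM of *Lrp1* (next 40.9 RPM). Among the 4 Klf1-led Lgr5-GFP+ cells of E13.5, 1 cell stood apart for each of *Alk* (36.4 RPM, next 2.74 RPM), *Sdc1* (120 RPM, next 0 RPM), *Sdc3* (8.76 RPM, next 1.14 RPM) and *Sdc4* (474 RPM, next 1.14 RPM). Among the 7 Pdgfra-led Lgr5-GFP+ cells of E13.5, 1 had 5048 RPM of *Ptn* (next 1624 RPM) and 1 had 1658 RPM of *Sdc1* (next 387 RPM).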

How the results depend on the processing

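No paired analysis was possible because each labelled group counts as 1 sample, so the spread over library pools, or counting error where pools gave no value, stood in for the spread between replicates. Of 253 alternative values for 23 results, 56 moved, 10 changed sign, whether or not inside the spread, and the others counted as the same. The count of genes was judged by a fixed fold band in place of a spread. For *Sdc1* the standard deviation over pools was 3.59, with pool 2 at -7.12, so its values could hardly move beyond it. The log2 ratio of Pdgfra-led over Afp-led cells kept its sign in 16 of 16 alternatives for *Mdk*, *Ptn* and *Sdc4* each. The alternatives re-use the same cells, and *Mdk* and *Ptn* were picked for this difference, so nothing is read from the kept sign for them. *Mdk* was 1.48 in pools 1 and 2 and 0.53 in bulk cells, and it passed the 2-fold limit in 7 of 17 settings, while *Ptn* stayed higher and *Sdc4* lower in all 17. *Sdc1* turned to 0.10 in pools 3 to 5, and *Lrp1* to -0.029 without pool 2 (up to 0.92 with another pool left out), -0.089 in pools 3 to 5 and -0.086 in bulk cells. The count of 2392 genes became 5084 in pools 1 and 2, 1460 at 4-fold and 4620 with no condition on the pools, and 2493 to 3240 with 1 pool left out.

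For E13.5 over E10.5 in Pdgfra-led cells, *Mdk* was -0.80 above 50 marker reads, -0.75 at 20 times the next marker, -1.27 with 4 markers, -0.91 in pools 1 and 2, -2.09 in pools 3 to 5, -0.97 as the mean over cells, -0.046 with median-of-ratios size factors and -1.72 to -0.50 with 1 pool left out. *Ptn*, in the same order, was 0.91, 0.96, 0.38, 2.26, -2.06, 0.48 and 1.64, with -0.81 to 1.38 with 1 pool left out, and 0.44 after thinning. Without the cell with the most reads, an alternative chosen after seeing the data, *Mdk* was -1.36 and *Ptn* -0.67. For Lgr5-GFP+ over bulk Pdgfra-led cells, *Mdk* was -0.043 in pools 1 and 2, and *Ptn* was -0.041 with 4 markers, -0.046 to 0.42 with 1 pool left out (lowest without pool 4) and -1.22 in pools 1 and 2. In Afp-led cells, *Mdk* was -0.52 with 4 markers, -0.78 in pools 1 and 2, -0.65 in pools 3 to 5, -0.64 as the mean over cells, -1.01 with size factors and -1.12 to -0.44 with 1 pool left out.

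With 4 markers per lineage, Pdgfra-led cells held 75.2% of *Mdk* and 90.2% of *Ptn* reads, and in pools 1 and 2 they held 35.7% of *Ptn* reads. The share of Pdgfra-led cells with both ligands was 75.5% in pools 1 and 2, 92.5% in pools 3 to 5 and 97.2% at 1 read or more, and that of Afp-led cells was 0% in bulk cells and 100% at 1 read or more. Where a value moved, the cause was not tested. Ratios of *Ptprz1*, *Alk* and *Sdc3* were not recomputed, since each lay under 5 RPM or rested on 1 cell.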

Other observations

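Within the 61 Afp-led cells of E10.5, the Pearson correlation of *Mdk* with *Afp* was -0.31 and with *Sdc4* -0.41 on the log2(RPM + 1) scale, and within the Pdgfra-led cells of E10.5 that of *Mdk* with *Pdgfra* was 0.32. These cells share pools, and 34 of the Afp-led cells were of pool 2, where *Mdk* was highest and *Sdc4* detected least among the 4 pools with at least 5 such cells.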
